A study of Mus musculus with 35 samples.

Results

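Pigl and Zmynd8 are 2 mouse genes that each hold a long stretch of chromatin acetylated in embryonic stem cells (ESC), free of acetylation peaks in mouse embryonic fibroblasts (MEF), and bound by the transcription factor KLF4 in every KLF4 library of the series. They were chosen by those measured values: among 31506 regions with an H3K27ac peak in both ESC libraries and in neither MEF library (ESC-only regions), the region in Pigl stood at place 1 and the region in Zmynd8 at place 2 by the score of their peaks, and both had KLF4 peaks in all 10 KLF4 libraries. The presence in ESC, the absence in MEF and the KLF4 peaks within these regions are therefore descriptions without a test. All peaks of 22 libraries over each gene and within 50 kb to each side, called the window here, were collected on GRCm38 coordinates. The windows held 69 of 106528 H3K27ac regions and 23 of 33428 KLF4 regions of the genome, a region being a stretch with peaks in at least 2 libraries of a stage; for KLF4 the stages that define regions are the 3 days and ESC in serum, and peaks of ESC in 2i are counted within those regions only. Peaks within the windows but outside such regions numbered 15 of 161 for H3K27ac and 29 of 83 for KLF4 around Pigl, and 25 of 326 and 34 of 112 around Zmynd8.

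Acetylation of histone H3 at lysine 27 (H3K27ac) marks active promoters and enhancers, and unusually long acetylated stretches are typical of genes and enhancers in strong use in a cell type. KLF4 is a zinc finger protein that binds GC-rich and CACC-type DNA, and is one of the factors used to turn fibroblasts into pluripotent cells. Pigl encodes the deacetylase of an early step in the synthesis of glycosylphosphatidylinositol (GPI), the lipid that anchors many proteins to the cell surface. Zmynd8 encodes a chromatin protein that reads acetylated and methylated histone tails and works with histone demethylases and deacetylase complexes.

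The MEF came from mice of strain C57BL/6 x 129 with genotype OKSM Col1a1/M2rtTA ROSA26, in which a doxycycline-activated transactivator at ROSA26 switches on a cassette for Pou5f1, Klf4, Sox2 and Myc at Col1a1. MEF libraries were made from unsorted cells without doxycycline. Libraries of days 3, 6 and 9 came from the same kind of cells kept in ESC medium to which doxycycline (1 µg/ml) and ascorbic acid (50 µg/ml) had been added, unsorted on day 3 and sorted for the surface marker SSEA1 on days 6 and 9, so sorting and day cannot be told apart between day 3 and the later days. ESC were of line V6.5, strain C57BL/6 x 129, unsorted, grown on irradiated feeder cells in serum with 1000 U/ml LIF, and their label names no cassette. For 2 KLF4 libraries the ESC medium also held a MEK inhibitor at 1 µM and a GSK3 inhibitor at 3 µM, a mixture known as 2i. H3K27ac had 2 libraries of MEF, 3 of day 3, 3 of day 6, 2 of day 9 and 2 of ESC. For KLF4 each of the 3 days, ESC in serum alone (called ESC here) and ESC in 2i had 2 libraries. The title of each library holds a code such as DG-3458, which is read here as its batch. MEF, ESC, 2 day 3 and 2 day 6 H3K27ac libraries belong to DG-3458. The remaining day 3 and day 6 H3K27ac libraries and both of day 9 belong to EA-3702. Of the KLF4 libraries, day 3 and day 6 each had 1 of EA-3702 and 1 of DG-4040, day 9 had both of EA-3702, ESC had EA-2697 and EA-2643, and 2i had EA-3702 and DG-3012. The KLF4 libraries of ESC thus share no batch with any other stage, and batch and stage cannot be told apart there. Nothing in the labels says that libraries of a group came from separate cultures or animals, so p-values measure the spread between libraries, which may be technical.

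The H3K27ac lists held 17493 to 88347 peaks covering 9.21 to 83.5 Mb, and the KLF4 lists 21129 to 34640 peaks covering 4.45 to 15.2 Mb. The shortest H3K27ac lists were those of day 6, and the longest those of MEF. Read depth was not given with the lists, so an absent peak means that none was called, not that no signal was there. Of 8 pluripotency markers, 8 carried an H3K27ac peak in every day 9 and ESC library, 3 to 4 in MEF, 2 to 3 on day 3 and 1 to 2 on day 6. Of 8 fibroblast markers, 8 carried one in MEF, 6 to 7 on day 3, 2 on day 6, 2 on day 9 and 2 to 3 in ESC. Of 4 epithelial markers, 2 had a peak in MEF, 2 to 3 on day 3, 2 on day 6, and 4 on day 9 and in ESC. Of 4 endothelial markers, 4 had one in MEF, 1 to 2 on day 3, 1 on day 6, 1 to 3 on day 9 and 3 in ESC. Of 4 blood cell markers, 4 had one in MEF, 3 on day 3, 1 to 2 on day 6, 3 on day 9 and 2 in ESC. Their part in the results by day was not tested. In these bulk libraries fewer cells with a mark and less of the mark per cell cannot be told apart.

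The 3 promoters of Pigl and Zmynd8 printed here were acetylated from MEF to ESC and had no KLF4 peak within their 300 bases. The intragenic regions are far wider and were chosen for their KLF4 peaks and for lacking MEF peaks, so no contrast is read. The wider acetylated stretches over these promoters had KLF4 in 3 (Pigl), 5 (Zmynd8, upstream start) and 9 (Zmynd8, downstream start) of 10 libraries. RefSeq sequences of GRCm38.p6, 250 bases before to 50 after the start, were at hand for 5 starts of Zmynd8, 1 of Pigl and 2 of the neighbour Ncor1. They are written 5′ to 3′ on the gene's strand for Pigl (chr11:62458191-62458490, plus strand), the divergent promoter of Ncor1 (chr11:62457283-62457582, minus strand), and the starts of Zmynd8 at chr2:165884789-165885088 and chr2:165858124-165858423 (both minus strand). Capitals mark the letters GGGNGTGG, a core shared by KLF motifs (N is any base), searched on both strands with overlapping matches allowed.

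Pigl promoter: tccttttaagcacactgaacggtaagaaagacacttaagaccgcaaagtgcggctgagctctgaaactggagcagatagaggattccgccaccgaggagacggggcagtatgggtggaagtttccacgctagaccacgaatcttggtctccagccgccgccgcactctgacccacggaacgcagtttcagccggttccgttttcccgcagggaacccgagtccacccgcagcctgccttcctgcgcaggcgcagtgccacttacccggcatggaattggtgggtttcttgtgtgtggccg

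Ncor1 promoter: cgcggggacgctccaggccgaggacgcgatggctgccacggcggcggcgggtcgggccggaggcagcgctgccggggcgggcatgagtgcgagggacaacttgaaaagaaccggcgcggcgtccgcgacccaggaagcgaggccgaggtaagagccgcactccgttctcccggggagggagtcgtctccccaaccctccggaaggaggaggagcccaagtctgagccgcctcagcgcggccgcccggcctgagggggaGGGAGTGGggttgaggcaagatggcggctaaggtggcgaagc

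Zmynd8 promoter, upstream start: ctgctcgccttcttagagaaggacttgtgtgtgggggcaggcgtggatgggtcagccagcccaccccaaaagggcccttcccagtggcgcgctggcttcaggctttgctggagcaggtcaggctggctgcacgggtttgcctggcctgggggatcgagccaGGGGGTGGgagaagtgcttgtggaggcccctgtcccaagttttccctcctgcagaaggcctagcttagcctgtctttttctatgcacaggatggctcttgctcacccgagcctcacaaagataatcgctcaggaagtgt

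Zmynd8 promoter, downstream start: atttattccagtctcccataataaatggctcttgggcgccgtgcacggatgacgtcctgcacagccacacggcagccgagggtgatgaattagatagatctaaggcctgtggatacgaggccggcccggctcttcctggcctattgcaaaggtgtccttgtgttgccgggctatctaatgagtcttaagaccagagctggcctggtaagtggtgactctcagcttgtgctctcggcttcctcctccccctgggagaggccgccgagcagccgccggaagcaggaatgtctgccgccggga

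The Pigl promoter carried H3K27ac in 12 of 12 libraries and a KLF4 peak in 0 of 10, and held no match to the motif. Both Zmynd8 promoters shown also had H3K27ac in 12 of 12 and KLF4 in 0 of 10 libraries. The upstream one held 1 match on its own strand, with its first base at -89 relative to the start, and the downstream one held none. The other 3 Zmynd8 promoters had H3K27ac in 9 to 10 of 12 libraries and KLF4 in 0, 0 and 1 of 10. The Ncor1 promoter, within the same acetylated stretch as that of Pigl, had KLF4 in 3 of 10 libraries and 1 match, first base at 9. The motif occurred in 17.6% of 32851 mouse promoters of 300 bases, so these matches are descriptions only. Sequence of the intragenic KLF4 sites was not used here.

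Pigl spans chr11:62458441-62516037 (gene ID 327942, 57.6 kb, plus strand). Its acetylated core region, the best ranked ESC-only region of the window, lay at chr11:62506901-62515834. The core was 8934 bp wide, began 48.5 kb inside the gene and ended 0.203 kb before the gene's 3′ end. It was wider than 99.8% of ESC-only regions, whose median width was 782 bp. Zmynd8 spans chr2:165784152-165898981 (gene ID 228880, 114.8 kb, minus strand), and its core lay at chr2:165806376-165813186. That core was 6811 bp wide, wider than 99.4% of ESC-only regions, and lay 22.2 kb from the gene's 3′ end and 85.8 kb from its 5′ end. Both cores thus sat inside the gene body, far from every annotated start of the gene. Whether they cover exons or introns was not analysed here. The next ESC-only region with KLF4 in all 10 libraries had a mean rank of 7 and lay at chr7:3198281-3222560 over the Mir290 cluster, a set of microRNAs typical of ESC, and Nlrp12. The cores of Pigl and Zmynd8 had mean ranks of 1 and 2.

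**Figure D1:**
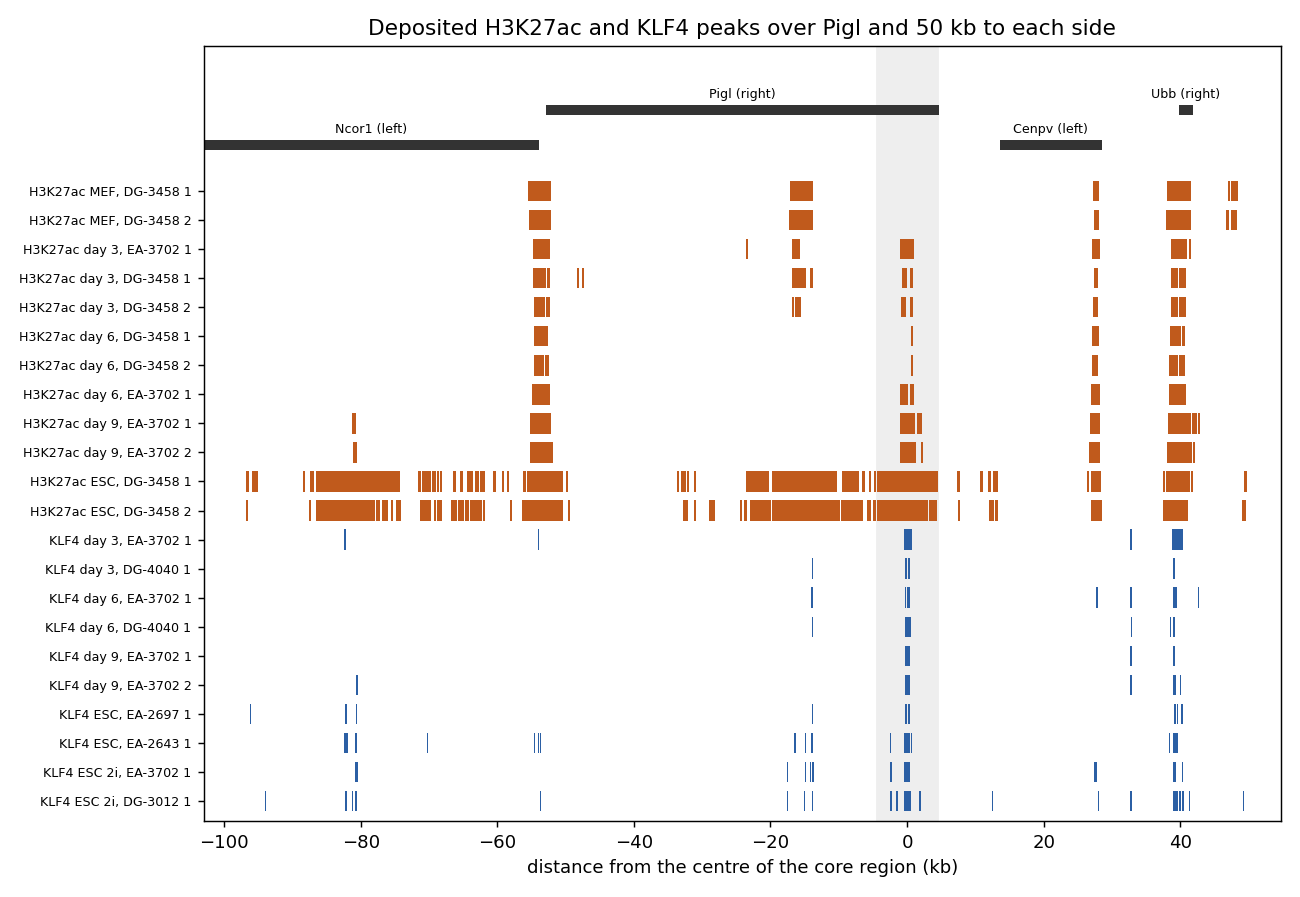
Deposited peaks of the 12 H3K27ac (orange) and 10 KLF4 (blue) libraries over Pigl and 50 kb to each side, by distance in kb from the centre of the core region (grey band). Each row is a library and each bar a peak, and black bars are genes with the direction of transcription in brackets. H3K27ac fills the core in ESC, is narrow there from day 3 to day 9 and missing in MEF, and KLF4 lies at the core's centre in 10 of 10 libraries.

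In the Pigl core, no peak was called in either MEF library, while 3 of 3 day 3, 3 of 3 day 6, 2 of 2 day 9 and 2 of 2 ESC libraries had at least 1. The same counts held in the Zmynd8 core. H3K27ac in all 8 libraries of days 3 to 9 was found in 1.27% of ESC-only regions, and in 23.8% of the 665 ESC-only regions (2.11% of 31506) that had KLF4 in all 10 libraries. Of those 665 regions, 47.7% had H3K27ac in at least 2 libraries on day 3, 42.6% on day 6 and 91.6% on day 9. Among the ESC-only regions without any KLF4 peak, the corresponding shares were 1.14%, 0.0904% and 4.06%. An overlap of 1 bp counted, so wider regions can meet peaks of both marks more easily. The 2 sets were not matched for width or score, and a tie between KLF4 and acetylation was not tested. Both cores thus carried H3K27ac peaks on day 3, the earliest day measured. With the top 50% of each list by score, 7 of the 8 libraries kept a peak in the Pigl core and 6 in the Zmynd8 core. Both cores had to remain ESC-only with KLF4 in all 10 libraries under this cut, so nothing is read from that. A cut adds no MEF peak, and their best ESC and KLF4 peaks all stood within the top 50%.

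Peaks covered at most 23.3% of either core on days 3 and 6 and 29.5% to 45.5% on day 9, and the difference between the days did not pass the test. The cores were drawn from the ESC peaks, so the cover in ESC, at least 92.7%, was set by that choice and nothing is read from it. On day 3 peaks covered 22.5%, 13.1% and 12.8% of the Pigl core. On day 6 they covered 3.12%, 4.03% and 19.3%. On day 9 they covered 32.7% and 29.5%, and in ESC 99.6% and 97.8%. Day 9 exceeded every day 3 and day 6 library, the ranges of day 3 and day 6 overlapped, and the high day 6 value came from batch EA-3702. Means were 16.2% ± 5.50 (SD, n = 3), 8.83% ± 9.11 (n = 3) and 31.1% ± 2.22 (n = 2) for days 3, 6 and 9. The F statistic, the spread between days over that within days, was tested by an exact two-sided permutation of the 8 libraries, with F = 6.47 and p = 0.05, adjusted p = 0.075 over 6 tests by Benjamini-Hochberg, which missed the threshold of 0.05.

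For Zmynd8 the day 3 libraries covered 9.95%, 10.7% and 4.85% of the core. The day 6 libraries covered 3.96%, 4.98% and 23.3%, and again the highest was that of EA-3702. On day 9 the cover was 37.8% and 45.5%, and in ESC 93.5% and 92.7%. Day 9 lay above all libraries of days 3 and 6. The means were 8.49% ± 3.17 (SD, n = 3), 10.7% ± 10.9 (n = 3) and 41.7% ± 5.46 (n = 2). The exact permutation test gave F = 13.5, p = 0.0464 and adjusted p = 0.075, which also missed the threshold. Within EA-3702 alone, single libraries of day 3 and day 6 gave 22.5% and 19.3% for Pigl and 9.95% and 23.3% for Zmynd8, below both day 9 libraries for each gene. Without the day 6 library of EA-3702 the day 6 means were 3.58% and 4.47%, and the adjusted p was 0.0381 for Pigl and 0.0571 for Zmynd8. That fit left day 6 all of DG-3458 and day 9 all of EA-3702, so batch and day cannot be told apart between them. Leaving out any other day 3 or day 6 library gave adjusted p of 0.0857 to 0.186 for Pigl and 0.075 to 0.171 for Zmynd8 (exact permutation tests).

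**Figure D2:**
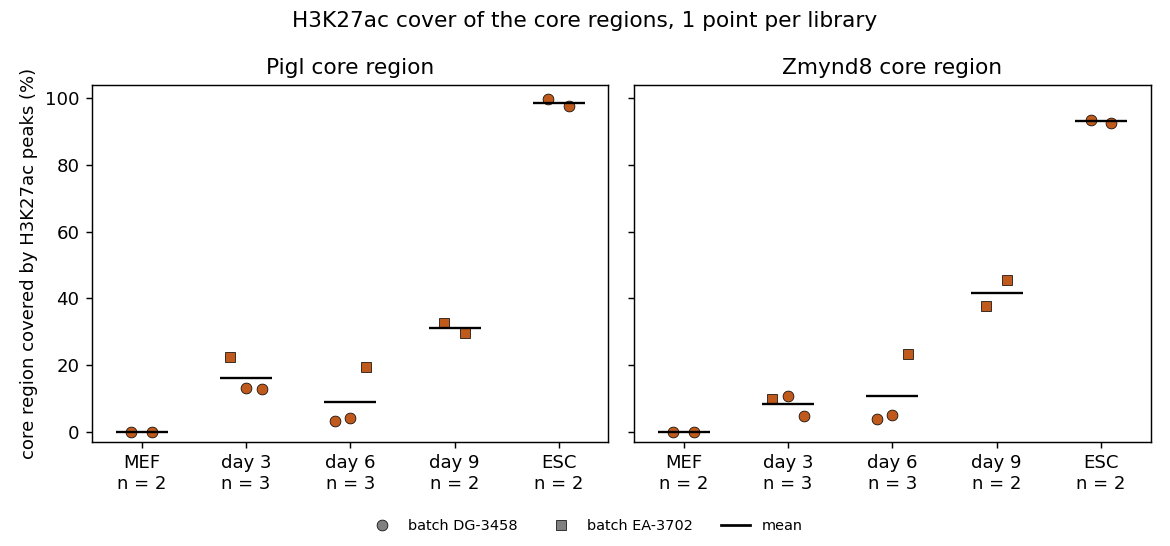
Percent of the Pigl (left) and Zmynd8 (right) core region covered by H3K27ac peaks in MEF, on days 3, 6 and 9 of reprogramming and in ESC. Points are libraries, shaped by batch, and lines are group means. MEF libraries are at 0, ESC libraries between 92.7% and 99.6%, and the day 9 libraries between 29.5% and 45.5%.

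The cover of the whole list also differed between stages, and its order over days 3, 6 and 9 was that of the Pigl means but not of the Zmynd8 means, which were lower on day 3 than on day 6. Day 6 lists covered 9.21 to 19.9 Mb of the genome, day 3 lists 23.8 to 38.4 Mb, day 9 lists 48.9 and 49.5 Mb, ESC lists 62.3 and 66.3 Mb, and MEF lists 82.8 and 83.5 Mb. Divided by the Mb in each list, the Pigl core had means of 46.4, 50.8 and 56.5 bp of peak per Mb on days 3, 6 and 9 (F = 0.143, p = 0.875 by the exact permutation test). The Zmynd8 core had 18.4, 47.3 and 57.6 bp per Mb, and the exact permutation test gave F = 3.16 and p = 0.129. The absence of MEF peaks chose the cores, so nothing is read from it. The nearest MEF peak lay 13946 bp from the middle of the larger KLF4 stretch shared by 10 libraries in the Pigl core and 9080 bp from the middle of that of Zmynd8.

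The peaks of the cores also had scores of unequal standing within their own lists. The score, fold and p-value of a peak are the authors' own and serve here only to place a peak within its list. The best H3K27ac peak in the Pigl core stood at place 13 of 81971 and 36 of 81231 in the ESC lists, with deposited folds of 52.9 and 44.2. That of Zmynd8 stood at place 53 and 85 in the same lists, with folds of 50.1 and 43.5. On day 9 the best peaks had scores above 89.3% and 91.1% of their lists for Pigl and above 87.9% and 88.1% for Zmynd8. On day 6 the standing was uneven: 67.1%, 1.26% and 80.1% of the list scored lower for Pigl, and 63.6%, 15.1% and 63.0% for Zmynd8. The low values came from the same library for both genes, number 2 of batch DG-3458. Its Pigl peak had a deposited −log10 p of 2.42 and a −log10 q of 0, close to the end of its list. Core peaks on day 3 scored above 75.1% to 87.0% of their lists for Pigl and 39.5% to 77.7% for Zmynd8.

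KLF4 was found in both cores at every stage measured, from day 3 of reprogramming to ESC in 2i; MEF had no KLF4 library. In the Pigl core the KLF4 region lay at chr11:62510877-62512154 (10 of 10 libraries), where 12.5% of all KLF4 regions had a peak in all 10. Bases shared by the peaks of all 10 libraries formed 2 stretches, chr11:62511087-62511274 and chr11:62511439-62511746, of 188 and 308 bp. Their middles lay at -0.187 and 0.225 kb from the centre of the core, so the shared sites sat almost in its middle. In the Zmynd8 core 1 stretch of 339 bp, chr2:165809932-165810270, was shared by all 10 libraries, at 0.320 kb from the centre. The middles of its 10 best peaks lay within 72 bp of each other, against 424.5 bp for Pigl.

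A separate KLF4 region in the Zmynd8 core, at chr2:165808161-165808481, was not present throughout. It had a peak in 0 of 2 libraries on day 3, 1 of 2 on day 6, and 2 of 2 on day 9, in ESC and in ESC in 2i. The Pigl core had no other KLF4 region defined by the days or ESC in serum. Both 2i libraries, however, had a further peak there, from -2.53 to -2.16 kb and from -2.44 to -2.24 kb from the centre, and 1 ESC library had one at -2.48 to -2.31 kb. Single libraries of ESC and 2i called up to 4 KLF4 peaks within the Pigl core, and those of days 3 to 9 at most 2.

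Within their lists the KLF4 peaks of Zmynd8 were strong in every library and those of Pigl less evenly so. The best Zmynd8 peak scored above 97.7% and 98.9% of the list on day 3, 91.9% and 97.6% on day 6, and 98.9% and 99.3% on day 9. In ESC it scored above 99.9% and 99.96%, and in 2i above 96.6% and 99.4%. The best Pigl peak scored above 97.3% and 89.9% of the list on day 3, 67.3% and 92.9% on day 6, and 87.2% and 91.1% on day 9. In ESC it scored above 99.5% and 99.7%, and in 2i above 91.8% and 99.6%. The lowest value for both genes was that of the day 6 library of EA-3702, and the highest that of the ESC library of EA-2643. Deposited folds of these peaks ran from 5.68 to 17.8 for Pigl and from 8.15 to 20.8 for Zmynd8. Ranks in lists of different length cannot show whether binding changed between stages, and no change was tested.

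**Figure D3:**
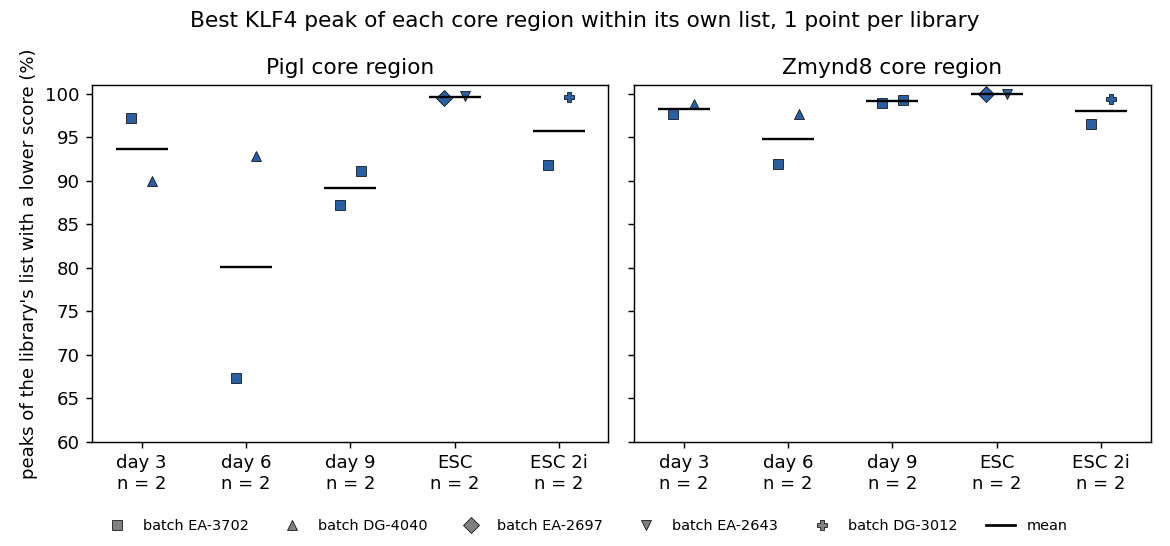
Percent of the peaks of each KLF4 list with a score below that of the best KLF4 peak in the Pigl (left) and Zmynd8 (right) core, by stage. Points are libraries, shaped by batch, and lines are means of 2 libraries; the axis starts at 60%. Zmynd8 values lie between 91.9% and 99.96%, and those of Pigl between 67.3% and 99.7%.

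H3K27ac peaks held the 339 bp KLF4 site shared by 10 libraries in the Zmynd8 core whole in both day 9 libraries, and in part or not at all in the others. On day 3 the peaks overlapped 161, 0 and 7 bp of it, and on day 6 they overlapped 0, 0 and 148 bp, with the 161 and 148 bp in the libraries of EA-3702. In ESC they overlapped 122 and 59 bp, and the middle of the site lay 61 and 110 bp from the nearest peak. In the Pigl core the larger shared site, 308 bp, was inside a peak whole in 1 of 3 day 3, 0 of 3 day 6, 2 of 2 day 9 and 2 of 2 ESC libraries. The remaining day 3 and day 6 libraries overlapped 0 bp of it, except that of EA-3702 on day 6 with 92 bp. The middle of the site was thus outside the peaks of both ESC libraries for Zmynd8 and of neither for Pigl. These values depend on how the peak caller joins nearby summits, and its settings were not given in the sources used here.

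The window around Pigl held 31 H3K27ac regions: 25 ESC-only (29.6% of all regions genome-wide), 2 with peaks in both MEF and no ESC library (MEF-only, 39.4%) and 4 with peaks in both libraries of each (shared, 14.9%). Of the 25 ESC-only regions, 22 had no H3K27ac peak in any library of days 3 to 9, beside 73.8% of ESC-only regions genome-wide. KLF4 was in none of the libraries at 19 of them, beside 59.7%. Only the core among them had KLF4 in all 10 libraries. Together the ESC-only regions spanned 43.3 kb of the 157.6 kb window, on both sides of the Pigl promoter.

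These counts are given as a description of the window. Of the 3 ESC-only regions with an earlier peak, 1 was the core, 8934 bp wide. Another, chr11:62424782-62434281, was 9500 bp wide and lay inside Ncor1, the gene of a corepressor of nuclear receptors, at -81.8 kb from the centre of the core. It had H3K27ac in 0 of 3 day 3, 0 of 3 day 6 and 2 of 2 day 9 libraries, and held KLF4 regions with peaks in 4 and 5 of 10 libraries. The last, at chr11:62487446-62491396 and 3951 bp wide, had a peak in 1 of 3 day 3 libraries and no KLF4. Next to it a shared region, chr11:62491567-62501561, at -14.8 kb from the centre of the core, had H3K27ac in both MEF and all 3 day 3 libraries, in none of the 5 libraries of days 6 and 9, and in both ESC libraries. KLF4 was called within it at chr11:62497303-62497635 in 1 of 2 day 3, 2 of 2 day 6, 0 of 2 day 9, 2 of 2 ESC and 2 of 2 ESC libraries in 2i. The promoters of Pigl and the Ncor1 start next to it (in 1 region), of Cenpv, a centromere protein gene, and of Ubb, a polyubiquitin gene, were acetylated in 12 of 12 libraries. The other Ncor1 promoter, chr11:62438466-62438765, had H3K27ac in 0 of 12 and KLF4 in 0 of 10 libraries.

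The window around Zmynd8 held 38 H3K27ac regions: 17 ESC-only, 5 MEF-only, 8 shared and 8 that fitted none of these classes. Of the 17 ESC-only regions, 12 had no peak on days 3 to 9 and 12 had no KLF4, beside 73.8% and 59.7% of all ESC-only regions, and the core alone had KLF4 in all 10 libraries. A region at chr2:165829168-165833687, its centre 21.6 kb from the core's centre toward the 5′ end of the gene, most resembled the core. It was ESC-only, 4520 bp wide, and had KLF4 in 6 of 10 libraries. It had H3K27ac in 3 of 3 day 3, 2 of 3 day 6 and 2 of 2 day 9 libraries. It ranked at place 587 of the ESC-only regions. Of the MEF-only regions, chr2:165840363-165842553 still had peaks in 2 of 3 day 3 libraries and in none of days 6 and 9. The stretches over the starts of Zmynd8, chr2:165854767-165862579 and chr2:165878550-165889248, were acetylated in 12 of 12 libraries. A region within the neighbour Eya2, a gene of a transcriptional coactivator and phosphatase, at chr2:165757655-165759999, had H3K27ac on day 9 (2 of 2 libraries) and in no library of another stage.

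**Figure D4:**
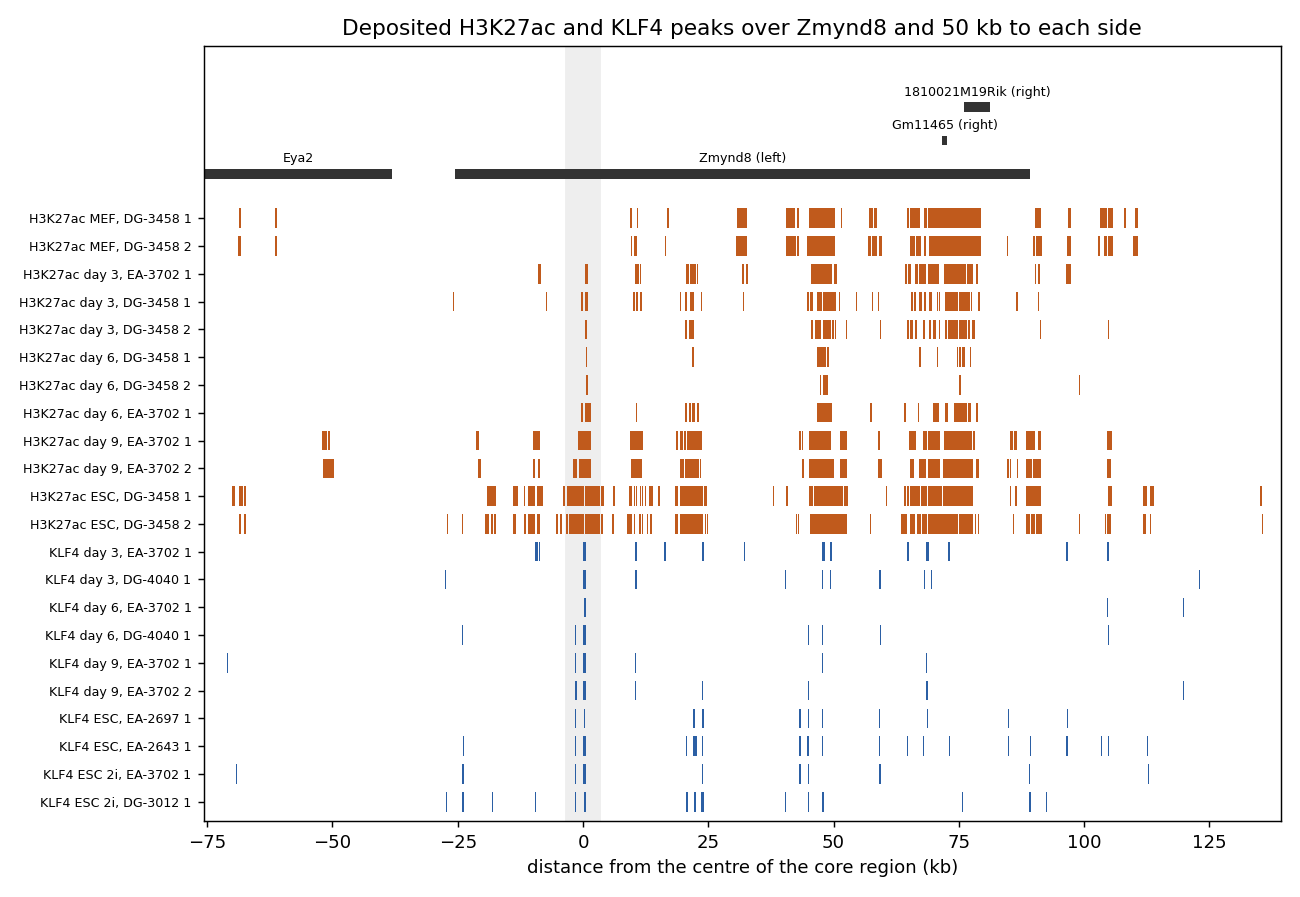
Deposited peaks of the 12 H3K27ac (orange) and 10 KLF4 (blue) libraries over Zmynd8 and 50 kb to each side, by distance in kb from the centre of the core region (grey band). Each row is a library and each bar a peak, and black bars are genes with the direction of transcription in brackets where known. H3K27ac at the starts of Zmynd8, to the right, is present from MEF to ESC, while that of the core is absent in MEF.

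Outside the cores, the length covered by H3K27ac differed between the days in both windows. The mean was lowest on day 6 and highest on day 9. For Pigl this order did not hold per Mb of each list or within 25 kb. Under the batch block F stayed 15.5 for Pigl and 23.7 for Zmynd8. The p of each was 0.0278, the smallest its 72 labelings allow, and adjusted p = 0.075 (exact permutation tests). With the other tests at their reported values, no outcome of the block could have passed, so it decides nothing about these calls. Around Zmynd8 the covered length outside the core was 22.1, 17.7 and 14.0 kb on day 3. It was 4.36, 1.71 and 11.7 kb on day 6, and 31.7 and 32.4 kb on day 9. The 3 days did not overlap: every day 6 library was below every day 3 library, and those below day 9. Means were 17.9 ± 4.07 (SD, n = 3), 5.92 ± 5.18 (n = 3) and 32.1 ± 0.501 kb (n = 2), and the exact permutation test gave F = 23.7, p = 0.00357, the smallest that the 560 labelings allow, and adjusted p = 0.0214. MEF libraries had 31.6 and 33.1 kb and ESC libraries 44.1 and 41.9 kb. All day 9 libraries belong to EA-3702. Within EA-3702 the values were 22.1 kb on day 3, 11.7 kb on day 6 and 31.7 and 32.4 kb on day 9, in the same order, and within DG-3458 both day 3 libraries exceeded both day 6 libraries. Without any one of the 3 day 3 libraries the adjusted p rose to 0.0571 to 0.0750 (exact permutation tests). These fits had 210 labelings in place of 560. F rose from 23.7 to 27.1 without day 3 of EA-3702 and to 26.4 without day 3 number 2 of DG-3458. It fell to 18.98 without day 3 number 1 of DG-3458. Per Mb of each list the adjusted p was 0.0857 (exact permutation test).

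Around Pigl the covered length outside the core was 7.82, 8.15 and 6.23 kb on day 3. It was 5.04, 5.32 and 6.32 kb on day 6, and 9.575 and 9.415 kb on day 9. Day 9 was above all others, and the ranges of day 3 and day 6 overlapped. Means were 7.40 ± 1.02 (SD, n = 3), 5.56 ± 0.672 (n = 3) and 9.50 ± 0.113 kb (n = 2), with F = 15.5, p = 0.0107 and adjusted p = 0.0321 by the exact permutation test. MEF had 12.4 and 12.3 kb, and ESC 54.0 and 52.7 kb, so both day 9 libraries were below MEF and far below ESC. Leaving out any single day 3 or day 6 library other than day 3 number 2 of DG-3458 raised the adjusted p to 0.0571 to 0.0857 (exact permutation tests). These fits had 210 labelings in place of 560. F rose to 17.1 without day 3 number 1 of DG-3458 and to 17.3 without day 6 of EA-3702, and fell to 9.97 to 13.5 in the others. Leaving out a day 9 library left 1 on that day, with F of 8.29 and 8.85. Per Mb of each list day 6 became the highest (0.458 kb per Mb, against 0.244 on day 3 and 0.193 on day 9). The call also ended with the top 50% of each list (adjusted p = 0.075), equal list lengths (0.0857) and the replicate block (0.0667, exact permutation tests), and within 25 kb day 3 was highest, with 5.14 kb against 4.69 kb on day 9. Within EA-3702 the order of the days was the same, with 7.82 kb on day 3 and 6.32 kb on day 6.

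KLF4 outside the cores was sparser, and its covered length did not pass the test between stages in either window. Around Pigl it was 2.41 and 0.578 kb on day 3, 1.55 and 0.974 kb on day 6, 0.684 and 1.10 kb on day 9, 1.55 and 2.95 kb in ESC, and 2.47 and 3.99 kb in 2i. The exact permutation test over 113400 labelings gave F = 2.12, p = 0.225 and adjusted p = 0.225. Around Zmynd8 the values were 4.57 and 2.07 kb on day 3, 0.585 and 1.19 kb on day 6, 0.919 and 1.14 kb on day 9, 2.38 and 4.63 kb in ESC, and 2.39 and 3.54 kb in 2i. Each library of day 6 and day 9 was below each of the other 6, and the exact permutation test gave F = 2.498, p = 0.218 and adjusted p = 0.225. Per Mb of each list the stages around Zmynd8 differed with adjusted p = 0.0190 (F = 25.8, exact permutation test), a difference in which the batches of ESC and the stage cannot be told apart.

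**Figure D5:**
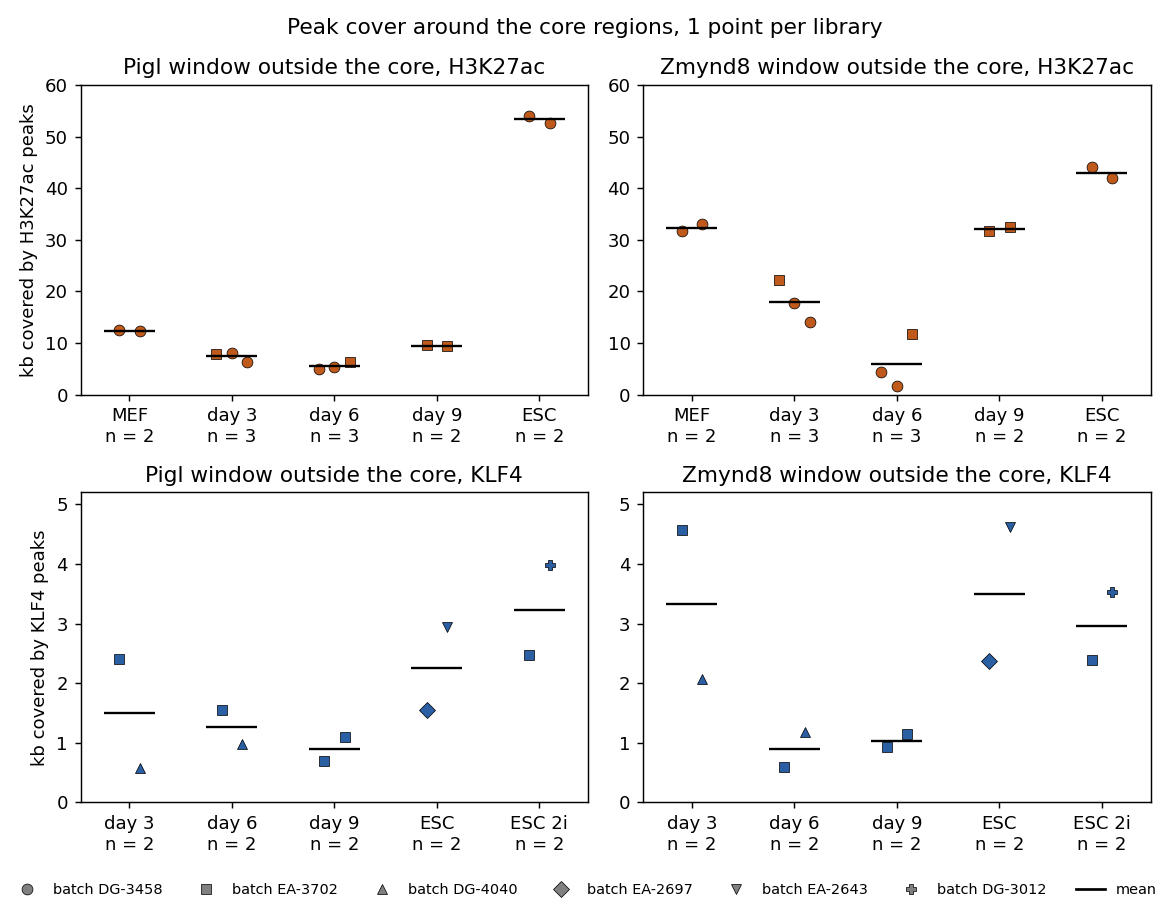
Length in kb covered by H3K27ac peaks (top) and KLF4 peaks (bottom) in the windows around Pigl (left) and Zmynd8 (right), outside the core regions, by stage. Points are libraries, shaped by batch, and lines are group means. In kb, mean H3K27ac cover is lowest on day 6 in both windows (for Pigl not so per Mb of each list), and the ESC libraries of Pigl, near 53.4 kb, stand far above its other stages.

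The windows, 157.6 kb around Pigl and 214.8 kb around Zmynd8, held 6 and 17 KLF4 regions, of which 1 and 2 lay in the cores. Of the 6 KLF4 regions around Pigl, 2 had a peak in all 10 libraries: the core site and chr11:62550155-62551820, which covers the promoter of Ubb. A site between Cenpv and Ubb, chr11:62544015-62544340, lay over no H3K27ac region and had KLF4 in 1 of 2 day 3, 2 of 2 day 6, 2 of 2 day 9, 0 of 2 ESC and 1 of 2 libraries in 2i. Of 17 KLF4 regions around Zmynd8, 1, the core site, had a peak in all 10 libraries. Both ESC libraries had a peak at 13 of them and both 2i libraries at 5, but ESC in serum could define a region and 2i could not, so these counts are not comparable: peaks that both 2i libraries had from -24.1 kb and from 89.0 kb onward are not among the 17. The shares of all KLF4 regions with such patterns are not given here, so these counts describe the window only. Of the 17, 4 had none on days 3 to 9 and 2 had none in ESC or 2i. Those last 2, chr2:165820087-165820525 and chr2:165859167-165859381, had KLF4 in both day 3 libraries, and the former also in both of day 9. None of the 17 regions overlapped a promoter of the table, and the nearest to one, chr2:165857412-165858047, had KLF4 in 7 of 10 libraries.

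The other genes of the pathways were searched for an ESC-only region with KLF4 in all 10 libraries over the gene or within 50 kb, which 5.55% of 21631 protein-coding genes had. Of 27 other genes of GPI-anchor synthesis, attachment and remodelling, 2 (7.41%) had one: Pigb, a mannosyltransferase of the pathway, at 29.0 kb, and Pgap1, which remodels the anchored lipid, at 26.9 kb. Those regions ranked at places 361 and 483 of the 665. Of 26 genes of proteins known to work with ZMYND8 or resemble it, 4 (15.4%) had one: Zfp532, a zinc finger partner, Mta1 and Mta3, subunits of the NuRD deacetylase complex, within the gene, and Hdac2, a histone deacetylase, at 35.6 kb. They ranked at places 126 (Hdac2), 303 (Zfp532), 308 (Mta3) and 389 (Mta1). The region of Hdac2 had H3K27ac in 7 of 8 libraries of days 3 to 9, that of Mta1 in 5, and those of Zfp532 and Mta3 in 8. These shares are descriptions over short lists and were not tested.

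The genes most like Pigl in the share of the gene covered by peaks, by the mean of the Pearson r over 12 H3K27ac libraries and the r over 10 KLF4 libraries among 15346 genes, were Cdh16 (0.98), Zfp97, Dlgap3, Zfp459 and Fbxo36 (all 0.96). For Zmynd8 they were Pigv (0.94), Plekha4 (0.93), Hunk (0.92), Zfyve26 (0.91) and Manbal (0.90). Pigl and Zmynd8 had a mean r of 0.76 with each other. Libraries share depth and list length across genes, so these values are descriptions. Counting each gene plus 2.5 kb beyond its ends, H3K27ac covered 10.5% to 10.6% of Pigl in MEF, 7.29% to 10.7% on day 3, 3.82% to 6.98% on day 6, 9.46% to 9.49% on day 9 and 51.8% to 54.4% in ESC. For Zmynd8 the corresponding ranges were 22.4% to 23.7%, 11.8% to 18.3%, 1.54% to 11.1%, 26.6% to 27.3% and 37.5% to 38.4%. All values include the cores, which were chosen for their ESC peaks and for lacking MEF peaks. Both day 9 values of Zmynd8 exceeded those of MEF, and both of Pigl lay below them. The MEF side of this is partly set by that choice. In the Zmynd8 window outside the core, day 9 (31.7 and 32.4 kb) lay between the MEF values (31.6 and 33.1 kb).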

How the data were processed

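Peak lists of 12 H3K27ac and 10 KLF4 ChIP-seq libraries were analysed; 13 input libraries were not analysed here. Per the submitters' processing notes, tools included cutadapt 1.8.1, Bowtie2 2.2.5, deepTools 2.3.6 and MACS2 2.1.1 with build mm10; settings and controls are not given in the sources used here. The authors deposited 1 list per library, so peaks were called per sample. Each deposited row holds a score, a fold (a ratio) over background, and −log10 of a p-value and q-value; the lowest deposited −log10 p was 2.00 to 2.09, and no counts, so depth is unknown. Lists of a group shared at most 15 identical intervals.

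Genes and promoters came from RefSeq tables of GRCm38.p6. H3K27ac peaks overlapped 22.0% to 42.3% of promoters, and 0.959% to 6.34% after moving them 20 kb. Peaks on chromosomes 1 to 19 and X overlapped when sharing at least 1 bp. A stage's consensus needed 2 libraries; KLF4 regions came from the 3 days and ESC in serum, not from 2i. The core of a gene was the ESC-only region in its window with the best mean score rank over both ESC libraries. Named genes were Pigl, Zmynd8, the genes in their windows, the neighbours in rank, the 5 genes most alike in cover, and listed pathway genes with such a region. The members, lists and tests were chosen with earlier results of these data known.

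Tests were exact two-sided permutation tests of the between-group F on 1 value per library, adjusted by Benjamini-Hochberg over 6 tests (Python 3.11.15, NumPy 2.4.6). The code for region classes was tried on simulated lists, and that of the permutation test on simulated random values. Alternatives were the top 50% of each list, equal list lengths (17493 and 21129 peaks), batch and replicate blocks, cover per Mb, windows of 25 and 100 kb, leaving out each library and, chosen after seeing the data, q at most 0.01 and exchanged day 6 numbers. Each alternative was judged with the other tests at their reported values.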

Additional observations from a re-analysis of the deposited data

How the results depend on the processing

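Of 52 fits that left out 1 library, 41 kept their call; of 48 other fits, 38 did. Leaving out single libraries gave F of 2.91 to 23.1 for the Pigl core, 8.29 to 40.3 for H3K27ac and 0.979 to 3.43 for KLF4 around it, and 5.38 to 69.3, 12.7 to 45.7 and 1.54 to 4.75 for Zmynd8. H3K27ac around Pigl lost its call with the top 50% of each list (F = 8.05) and with equal list lengths (6.56). The order of its days turned per Mb (7.15) and within 25 kb (5.198, with 5.14, 3.37 and 4.69 kb on days 3, 6 and 9). Under the batch block H3K27ac around Pigl had adjusted p = 0.075 at an unchanged F of 15.5 (exact permutation test). H3K27ac around Zmynd8 lost its call per Mb (F = 2.83), and under the batch block had adjusted p = 0.075 at an unchanged F of 23.7 (exact permutation test). KLF4 around Zmynd8 gained a call per Mb (25.8). The batch block has 72 labelings, so its smallest p is 0.0278, which H3K27ac outside the cores reached in both windows. That p could not pass after adjustment with the other tests at their reported values, so the block decides nothing about these calls. Fits without a library have fewer labelings too, and otherwise the cause was not tested. ESC-only regions fell from 31506 to 16173 with the top 50% and to 6576 with equal list lengths, and those with KLF4 in all 10 libraries from 665 to 289 with the top 50%; shorter lists hold fewer regions.

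Libraries of DG-3458 share the numbers 1 and 2, but the labels do not say that a number marks a shared culture, and deviations of same-numbered libraries correlated between -0.00757 and 0.0134 over 106528 regions. With the replicate block, H3K27ac around Pigl kept F = 15.5 with adjusted p = 0.0667 in the exact permutation test and lost its call, also with the day 6 numbers exchanged as in the files' peak names (15.5). The replicate block changed no other call. Read depth, which would limit whether an absent peak means an absent signal, was not given.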

Other observations

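Among the 12 best ranked ESC-only regions with KLF4 in all 10 libraries, 9 had H3K27ac in all 8 libraries of days 3 to 9. Those of Pigl and Zmynd8 were among the 9. Of all 665 such regions 23.8% had it, and of all ESC-only regions 1.27%. The 12 were picked by their ESC scores, and the shares were not matched for score or width. Regions at places 4 to 7 and 9 lay nearest to Fam53a, Rab12, Slc2a1, Cbfa2t2 and Plekhf2, and those at places 8, 10, 11 and 12 lay over Brd1, Katnal2, Pou5f1 and Fbxo15. The region of Pou5f1, which encodes OCT4, had H3K27ac in 3 of 3 day 3, 1 of 3 day 6 and 2 of 2 day 9 libraries. No difference among these regions was tested.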
